A study of Mus musculus with 72 samples.

Results

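The comparison described here is that of liver mRNA at 2 Gy with liver mRNA at 0 Gy, and it rests on the 6 of the study's 72 arrays whose labels name liver, mRNA and one of these doses. The 0 Gy group holds mice 1, 11 and 21, which were sham-treated in the same containers as the irradiated animals. The 2 Gy group holds mice 3, 13 and 23, which received a single whole-body X-ray dose. All 6 were female C57BL/6 J mice of 6 to 8 weeks, an unmodified inbred strain, and livers were taken 48 h after exposure, 1 animal per array. The rest of the study covers doses up to 12 Gy, the lung of the same design and miRNA.

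Ionizing radiation breaks DNA, and the damage stabilizes the transcription factor p53, which raises genes that halt the cell cycle or lead to cell death. Lymphocytes and red cell precursors are known to be very sensitive to whole-body radiation, whereas most hepatocytes of an adult liver do not divide. The liver is also the main source of acute phase proteins, plasma proteins that hepatocytes make in large amounts during inflammation.

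The deposited intensities are median spot brightness without normalization between arrays. Levels below are background-corrected, quantile-normalized log2 intensities, and a change is the 2 Gy mean minus the 0 Gy mean on that scale, with the standard error (SE) of the limma fit and n = 3 mice a group. Between 46.13% and 53.99% of spots were well above background on each of the 6 arrays, replicate arrays correlated at 0.9903 to 0.9924 at 0 Gy and at 0.9815 to 0.9847 at 2 Gy. Precision is limited by the number of arrays. The 0 Gy arrays and those of 2 Gy mice 3 and 13 shared a slide, while 2 Gy mouse 23 lay on another slide. The tissue label was checked with 11 hepatocyte marker genes, which were all well above background on all 6 arrays, and *Alb*, which encodes albumin, lay between 18.71 and 18.76 in every mouse. Quantile normalization favours such closeness in very bright probes, so only the high level, not the agreement, bears on the label.

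Of 38362 probes tested, 94 were called (0.245%), that is, changed by more than 1 log2 unit at an adjusted p below 0.05. Of these, 31 were higher (0.0808%) and 63 lower (0.164%) at 2 Gy. At any size of change, 176 probes (0.459%) had an adjusted p below 0.05, 69 of them higher (0.18%) and 107 lower (0.279%). The levels of the 3 irradiated and the 3 control mice did not overlap for any of the 94 called probes, a pattern that 7129 of all tested probes showed (18.6%). The genes behind the increases were led by serum amyloid A and p53 targets, and those behind the decreases by globins, a group of serpins, mitotic genes and B cell genes. Counted by gene, 20 of 18163 genes with a RefSeq symbol had a probe called higher (0.11%) and 51 a probe called lower (0.281%), and the median change of all these genes was 0.01. These shares are the background against which the gene groups below are read. Leaving out each of the 6 mice in turn left 50 to 117 calls, with 50 without 0 Gy mouse 11 and 51 without 2 Gy mouse 13, and 35 of the 94 probes were called in all 6 of these fits. Within the shared slide, where 2 Gy mice 3 and 13 stand against the controls, 14 of 93 tested probes stayed called. Once the slide was added to the model, 51 of the 94 stayed called. Of the doses on the shared slide only 2 Gy also had an array elsewhere, that of mouse 23. The slide term therefore rests on that mouse, and this fit too in effect sets 2 Gy mice 3 and 13 against the controls. The direction held for all 93 and all 94 probes. Probes called without overlap can hardly reverse in these fits, so the kept direction does not test the slide.

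**Figure D1:**
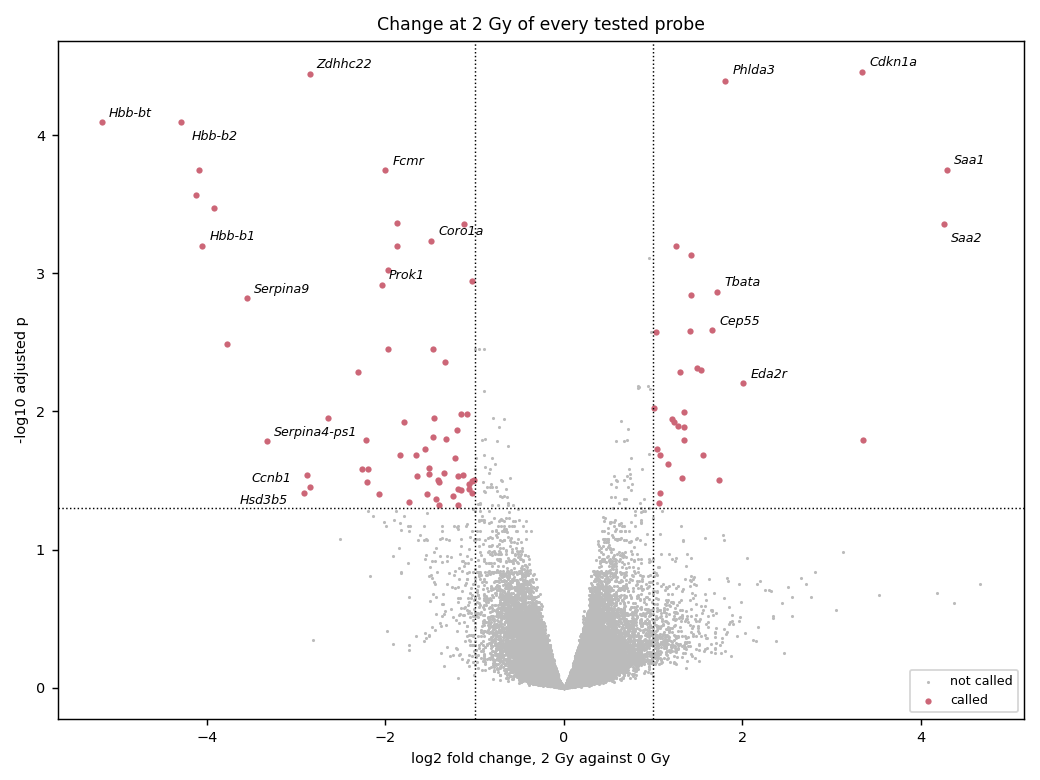
Change of each of the 38362 tested probes at 2 Gy against 0 Gy in liver (horizontal axis, log2 fold change) against the −log10 of its adjusted p value (vertical axis, limma, 3 mice a group), with the 94 called probes in red and dotted lines at the thresholds. Of the called probes those of globins lie farthest left and *Saa1* and *Saa2* farthest right, and more called probes lie on the lower side (63) than on the higher side (31).

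Several genes that p53 is known to switch on were higher at 2 Gy. Of 14 tested p53 targets of growth arrest, 4 were called higher and none lower, with a median change of 0.51, and of 11 targets of cell death 1 was called higher, with a median of 0.05. *Cdkn1a*, which encodes p21, the inhibitor of cyclin-dependent kinases that p53 uses to arrest the cycle, had levels of 5.94, 6.76 and 6.70 in 0 Gy mice 1, 11 and 21 and of 10.05, 9.84 and 9.54 in 2 Gy mice 3, 13 and 23. The lowest irradiated mouse lay far above the highest control. The change was 3.34 (SE 0.24, adjusted p = 3.47e-05), a 10.2-fold increase, and a separate probe of the gene, not well above background in the controls, was at least 2.75-fold higher. *Phlda3*, a p53 target that restrains Akt signalling, measured 7.46, 7.42 and 7.29 in the controls and 9.48, 9.09 and 9.03 in the irradiated mice. Its change of 1.81 (SE 0.14, adjusted p = 4.06e-05) was large against its SE, and mice of each group differed by less than 0.5. *Eda2r*, a death receptor of the TNF receptor family, was not well above background in any control, at 3.84, 4.17 and 4.72, and reached 6.83, 6.13 and 5.81 at 2 Gy. It was at least 3.57-fold higher (adjusted p = 0.00623).

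The increases of the other called p53 targets were smaller. *Ccng1*, which encodes cyclin G1, a p53 target that feeds back on p53, went from 9.99, 9.52 and 9.98 to 11.12, 11.09 and 11.01, a change of 1.24 (SE 0.20, adjusted p = 0.012). *Ddias*, a DNA damage-induced inhibitor of apoptosis, measured 5.04, 5.23 and 5.44 at 0 Gy and 6.46, 6.28 and 6.50 at 2 Gy, a change of 1.17 (SE 0.21, adjusted p = 0.0242). Neither pair of groups overlapped. *Mdm2*, the ubiquitin ligase that degrades p53, had a change of 0.39 (SE 0.15, adjusted p = 0.305), and *Bax*, which permeabilizes mitochondria in apoptosis, one of 0.49 (SE 0.14, adjusted p = 0.17), so neither passed the test at this number of mice. Of 8 genes of the p53 family and its feedback none was called, and the largest change was that of *Trp63*, at 1.08 (SE 0.46, adjusted p = 0.371). *Cdkn1a*, *Phlda3* and *Eda2r* were called whichever mouse was left out. *Ccng1* was lost without 0 Gy mouse 11 or 2 Gy mouse 13, and *Ddias* without any mouse other than 0 Gy mouse 21.

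Among 19 tested genes of DNA repair and checkpoints none was called, with a median change of −0.09. *Polk*, the translesion DNA polymerase kappa, rose by a smaller amount, from 7.88, 8.24 and 8.23 to 8.79, 8.70 and 8.90, a change of 0.68 (SE 0.13, adjusted p = 0.0314). *Rad9b*, a relative of the checkpoint clamp protein Rad9, did not pass the test across the 3 irradiated mice (adjusted p = 0.105). It was not well above background in any control, at 5.31, 4.79 and 4.86, and measured 9.51 and 9.47 in 2 Gy mice 3 and 13 but 5.36 in 2 Gy mouse 23. Only those 2 irradiated mice were therefore high, and without 2 Gy mouse 23 the gene passed the test. Its mean levels at 1, 4, 8 and 12 Gy were 5.03, 4.84, 4.51 and 4.93.

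**Figure D2:**
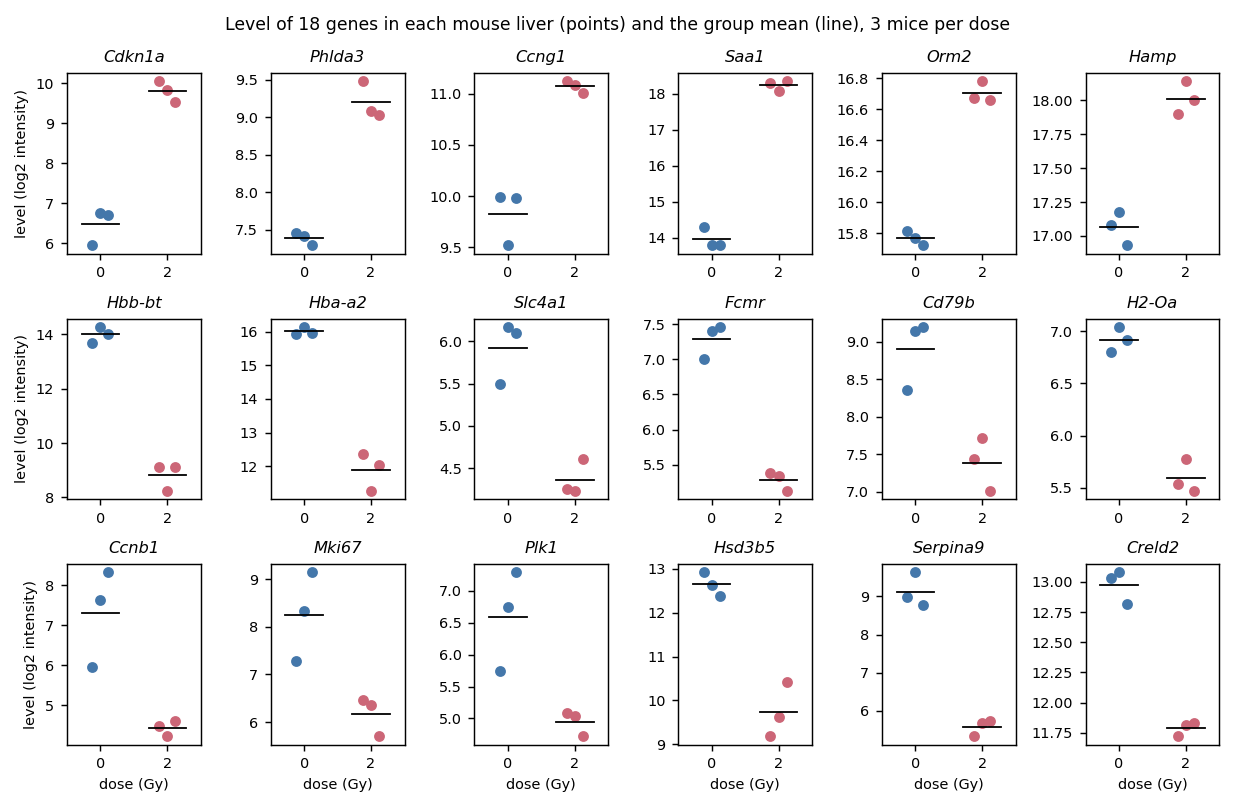
Normalized log2 intensity (vertical axis) of 18 genes in each liver at 0 Gy and 2 Gy, 1 panel per gene, with a point per mouse and a line at the mean of 3 mice. In each panel all 2 Gy points lie on one side of all 0 Gy points, above them for *Cdkn1a*, *Phlda3*, *Ccng1*, *Saa1*, *Orm2* and *Hamp* and below them for the other 12 genes.

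The largest increases were those of the genes of serum amyloid A, an apolipoprotein that hepatocytes secrete during the acute phase. *Saa1* measured 14.28, 13.79 and 13.78 in 0 Gy mice 1, 11 and 21 and 18.30, 18.08 and 18.34 in 2 Gy mice 3, 13 and 23. The controls were already far above background, and the irradiated mice lay close together, far above them. The change was 4.29 (SE 0.40, adjusted p = 0.000178), a 19.6-fold increase. *Saa2* went from 13.60, 13.15 and 13.15 to 17.82, 17.59 and 17.27, a change of 4.26 (SE 0.45, adjusted p = 0.000437). Both genes were called whichever mouse was left out and also within the shared slide, where the changes were 4.21 and 4.39. Since the genes are near-identical copies, signal of either transcript may reach both probes, and the values cannot be assigned to a single copy with certainty. The windows below run from 250 bases before to 50 bases after the RefSeq start site (mouse build GRCm38.p6), at chr7:46742931-46743230 on the minus strand for *Saa1* and chr7:46751583-46751882 on the plus strand for *Saa2*, and are shown because these genes had the largest increases. Capitals mark a match to TTGCNNAA, a pattern bound by C/EBP factors, and 287 of 301 aligned columns (95.3%) were identical.
Saa1: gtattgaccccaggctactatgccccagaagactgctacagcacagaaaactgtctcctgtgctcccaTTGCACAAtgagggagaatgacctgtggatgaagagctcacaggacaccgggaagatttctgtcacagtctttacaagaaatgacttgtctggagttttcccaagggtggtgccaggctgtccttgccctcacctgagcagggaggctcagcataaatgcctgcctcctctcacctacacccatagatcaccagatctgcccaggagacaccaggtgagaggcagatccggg
Saa2: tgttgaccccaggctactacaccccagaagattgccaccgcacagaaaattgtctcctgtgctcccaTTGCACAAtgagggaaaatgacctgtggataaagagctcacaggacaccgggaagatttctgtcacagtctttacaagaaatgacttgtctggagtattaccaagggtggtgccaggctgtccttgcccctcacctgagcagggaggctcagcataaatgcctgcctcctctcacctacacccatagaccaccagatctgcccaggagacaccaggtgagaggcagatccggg

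Searched on both strands, TTGCNNAA occurred in 10.8% of 32851 RefSeq promoter windows of this length and in 48.1% of the 27 windows of acute phase genes, which stand for 24 genes of which 13 held it. Of 28 tested acute phase genes, 24 had a change above 0, 2 were called and the median was 0.32. At an adjusted p below 0.05 but with smaller changes, 3 more rose. *Orm2*, which encodes an orosomucoid, a plasma glycoprotein of the acute phase, went from 15.81, 15.77 and 15.72 to 16.67, 16.78 and 16.66, a change of 0.94 (SE 0.14, adjusted p = 0.00656). Its relative *Orm3* measured 11.82, 11.42 and 11.78 at 0 Gy and 12.51, 12.59 and 12.78 at 2 Gy, a change of 0.95 (SE 0.17, adjusted p = 0.0205). *Hamp* encodes hepcidin, the liver hormone that limits iron uptake and release. Its levels were 17.08, 17.18 and 16.93 in the controls and 17.90, 18.14 and 18 in the irradiated mice, a change of 0.95 (SE 0.11, adjusted p = 0.000782). None of these 3 genes had overlapping groups. *Lcn2*, a siderophore-binding acute phase protein, had a change of 0.72 (SE 0.27, adjusted p = 0.298), and the metallothioneins *Mt1* and *Mt2*, which bind zinc and copper, had changes of 0.46 and 0.49 with adjusted p of 0.566 and 0.58. The summed linear intensity of the list ran from 1870045 to 2026612 at 0 Gy and from 2800465 to 2992974 at 2 Gy.

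Globin transcripts had the largest decreases. Globin chains form haemoglobin, and their mRNA comes from red cell precursors and reticulocytes, so that in liver it reports on blood as well as on tissue. In a bulk sample, fewer cells of a type and less RNA per cell cannot be told apart. All 5 tested globin genes were called lower, with a median change of −4.12. *Hbb-bt*, an adult beta chain, measured 13.70, 14.28 and 14.02 in 0 Gy mice 1, 11 and 21 and 9.11, 8.24 and 9.11 in 2 Gy mice 3, 13 and 23. Every irradiated mouse lay more than 4 log2 units below every control, and the change of −5.18 (SE 0.45, adjusted p = 8.05e-05) is a 36.3-fold lower level. *Hba-a2*, an adult alpha chain, went from 15.93, 16.14 and 15.97 to 12.38, 11.27 and 12.03, a change of −4.12 (SE 0.41, adjusted p = 0.000273). *Hbb-b2*, *Hba-a1* and *Hbb-b1* changed by −4.29, −4.09 and −4.05, all with adjusted p between 8.05e-05 and 0.000631. In each of the 5 genes mouse 13 was the lowest of the irradiated mice. The alpha chain genes are near-identical copies, as are the beta chain genes to a lesser degree, so their values are not independent. All 5 were called whichever mouse was left out.

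Few of the other red cell genes passed the test. Of 10 tested erythroid markers 1 was called lower, and the median change was 0.17, with 6 above 0. *Slc4a1*, which encodes the anion exchanger band 3 of the red cell membrane, measured 5.49, 6.17 and 6.10 in the controls and 4.25, 4.23 and 4.61 in the irradiated mice, where it was not well above background. It was at least 2.94-fold lower (adjusted p = 0.0186), and the call was lost without 0 Gy mice 11 or 21 or 2 Gy mice 3 or 13. *Tspan33*, a tetraspanin of red cell precursors, fell by 0.72 on the log2 scale (SE 0.14, adjusted p = 0.0413). *Alas2*, the erythroid enzyme that starts heme synthesis, had a change of −0.95 (SE 0.21, adjusted p = 0.0622), and none of 11 genes of heme synthesis and breakdown was called. Summed over the list, the linear intensity of the erythroid markers was 28874 to 36026 at 0 Gy and 22133 to 32056 at 2 Gy, against 164309 to 190445 and 6261 to 13255 for the globins, and 3 or 4 of the 10 markers were not well above background on each of the 6 arrays.

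Several genes of B lymphocytes were lower at 2 Gy. Of 14 tested markers 4 were called lower and none higher, 12 had a change below 0 and the median was −1.09. *Fcmr*, the receptor for the constant part of IgM, measured 7.01, 7.40 and 7.46 in the controls and 5.38, 5.34 and 5.13 in the irradiated mice. It was not well above background on any 2 Gy array and was at least 4.01-fold lower (adjusted p = 0.00018). *Fcer2a*, which encodes CD23, the low-affinity IgE receptor of mature B cells, went from 6.06, 6.33 and 6.34 to 4.14, 4.62 and 4.06 and was at least 3.56-fold lower (adjusted p = 0.00356). *Cd79b*, a signalling chain of the B cell receptor, was measured in both groups, at 8.36, 9.14 and 9.20 against 7.44, 7.71 and 7.01. Its change was −1.51 (SE 0.27, adjusted p = 0.0255). *Ms4a1*, which encodes CD20, had levels of 5.35 and 5.34 in 2 Gy mice 3 and 23 but 6.63 in 2 Gy mouse 13, against 6.86, 7.20 and 7.33 in the controls, and a change of −1.36 (SE 0.31, adjusted p = 0.0735) that passed the test without 2 Gy mouse 13. *Fcmr* and *Fcer2a* were called whichever mouse was left out, whereas *Cd79b* was lost without 0 Gy mice 11 or 21 or 2 Gy mice 3 or 23. The summed linear intensity of the list was 2111 to 2781 at 0 Gy and 839 to 1206 at 2 Gy, where 6 to 11 of the 14 markers were not well above background on an array, against 0 to 3 at 0 Gy.

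The fourth B cell list member called lower, *Serpina9*, encodes a protease inhibitor known from germinal centre B cells, and it is described with the serpins below. It also enters the summed intensity of the list, and whether its fall reports on B cells was not tested. Outside the list, 3 more called decreases are named here after their values were seen. *Coro1a*, the actin regulator of leukocytes, measured 9.91, 9.86 and 9.84 at 0 Gy and 8.21, 8.61 and 8.31 at 2 Gy, a change of −1.49 (SE 0.16, adjusted p = 0.000581). *Ccr7*, the chemokine receptor that guides lymphocytes to lymph nodes, changed by −1.41 (SE 0.27, adjusted p = 0.0314), and *Spib*, a transcription factor of B cells, was at least 2.17-fold lower (adjusted p = 0.0291). For these genes too every irradiated mouse lay below every control.

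All 10 tested genes of MHC class II antigen presentation had a change below 0, with a median of −0.62, and 1 was called. *H2-Oa*, a chain of the H2-O molecule that modulates peptide loading in B cells, went from 6.80, 7.04 and 6.91 to 5.54, 5.78 and 5.47, a change of −1.32 (SE 0.22, adjusted p = 0.0159). Its partner chain *H2-Ob* fell by 0.92 on the log2 scale (SE 0.15, adjusted p = 0.0162). The call of *H2-Oa* was lost without 0 Gy mice 11 or 21 or 2 Gy mouse 23. None of 12 T cell markers was called, with a median of −0.31 and the largest change in *Cd8b1*, a chain of the CD8 coreceptor, at −1.11 (SE 0.33, adjusted p = 0.18). None of 6 plasma cell markers, 10 markers of NK and cytotoxic cells, 12 of neutrophils and 16 of Kupffer cells and macrophages was called either, with medians of −0.26, −0.07, 0.30 and −0.20. Among these were *Derl3*, an ER protein of secretory cells, at −1.91 (SE 0.48, adjusted p = 0.111), the granule protein *Ltf*, near background at 2 Gy (adjusted p = 0.479), and the scavenger receptor *Marco* at 1.03 (SE 0.40, adjusted p = 0.318). The summed T cell markers overlapped between groups, at 9818 to 13795 for 0 Gy and 6266 to 11697 for 2 Gy, as did those of Kupffer cells and macrophages, at 65741 to 72357 and 56719 to 75770.

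**Figure D3:**
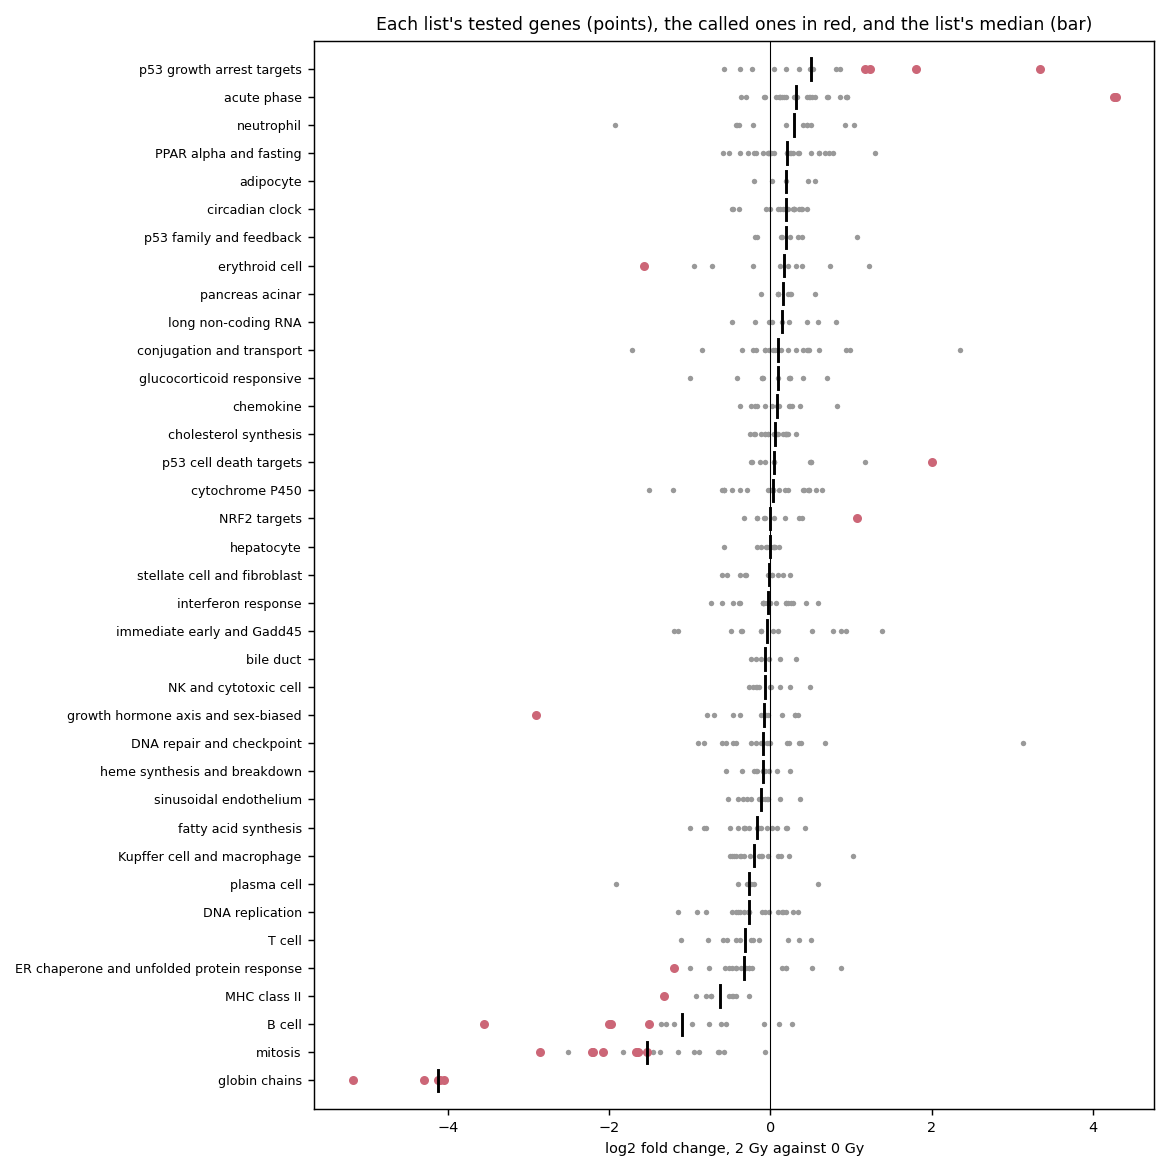
Change at 2 Gy against 0 Gy (horizontal axis, log2 fold change) of each tested gene of the gene lists (vertical axis, 1 row per list) by its brightest probe, in red where that probe was called, and a bar at the list's median. The globin list lies apart at a median of −4.12, mitosis at −1.53 and B cell at −1.09, and most other lists are centred near 0.

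Genes of mitosis were lower at 2 Gy. All 19 tested had a change below 0, 7 were called and the median was −1.53. *Ccnb1*, which encodes cyclin B1, the partner of Cdk1 at entry into mitosis, measured 5.95, 7.62 and 8.32 in 0 Gy mice 1, 11 and 21 and 4.50, 4.23 and 4.61 in 2 Gy mice 3, 13 and 23. It was not well above background on any 2 Gy array and by this probe was at least 7.22-fold lower (adjusted p = 0.0354). The other probes of *Ccnb1*, also near background at 2 Gy, had smaller fitted changes of −1.48 and −0.5 and did not pass (adjusted p = 0.12 and 0.669). The processed copy *Ccnb1-ps*, which may share signal with *Ccnb1*, was at least 7.02-fold lower (adjusted p = 0.0288). *Mki67*, the nuclear protein Ki-67 of dividing cells, went from 7.29, 8.32 and 9.14 to 6.47, 6.35 and 5.70, a change of −2.07 (SE 0.41, adjusted p = 0.0397). *Plk1*, a kinase that drives mitotic entry and spindle formation, measured 5.74, 6.75 and 7.29 in the controls and 5.08, 5.04 and 4.72 at 2 Gy and was at least 3.12-fold lower (adjusted p = 0.0295). In these genes and in the others of the list that were called, 0 Gy mouse 1 was the lowest control and 0 Gy mouse 21 the highest, and the groups did not overlap.

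Further mitotic genes were called. *Tpx2*, a spindle assembly factor, was at least 4.35-fold lower (adjusted p = 0.0262), and *Ccna2*, which encodes cyclin A2, changed by −2.21 (SE 0.42, adjusted p = 0.0325). *Birc5*, the survivin of the chromosomal passenger complex, changed by −1.66 (SE 0.29, adjusted p = 0.0208), though another of its probes, near background at 2 Gy, did not pass (adjusted p = 0.487). *Aurka*, the Aurora A kinase of the centrosome, went from 6.64, 7.54 and 7.96 to 5.92, 5.68 and 5.94, a change of −1.53 (SE 0.30, adjusted p = 0.0396). Outside the list, *Prc1*, which bundles microtubules of the central spindle, measured 7.04, 8.08 and 8.60 at 0 Gy and 6.00, 5.29 and 4.50 at 2 Gy, a change of −2.64 (SE 0.42, adjusted p = 0.0112), while another of its probes, near background at 2 Gy, did not pass (adjusted p = 0.16). *Racgap1*, its partner in cytokinesis, went from 6.18, 6.72 and 7.65 to 5.33, 5.27 and 5.41, a change of −1.51 (SE 0.28, adjusted p = 0.0286). The calls of *Ccnb1*, *Ccna2*, *Mki67*, *Birc5*, *Plk1* and *Aurka* held only when 0 Gy mouse 1 was the mouse left out, and *Tpx2* was lost without 0 Gy mice 11 or 21 or 2 Gy mice 13 or 23. The summed linear intensity of the mitotic list was 1678, 3764 and 5439 in 0 Gy mice 1, 11 and 21 and 958 to 1160 at 2 Gy. At 2 Gy, 9 to 12 of the 19 genes were not well above background on an array, against 0 to 2 at 0 Gy, so the sums and the median change at 2 Gy rest largely on values near background.

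Genes of DNA replication did not pass the test. Of 20 tested, from the MCM helicase subunits to ribonucleotide reductase, none was called at either threshold, the median was −0.27 and the largest change was that of *Mcm5*, at −1.14 (adjusted p = 0.12). Promoters of 4 genes called lower are shown because they hold elements known from genes of mitosis, the CHR element, TTTGAA, and the CCAAT box, the last of these on either strand. The stretches run from 70 bases before to 50 after the RefSeq start site in build GRCm38.p6, with both motifs in capitals where they stand in this orientation. They lie at chr7:122159365-122159484 on the plus strand for *Plk1*, chr2:172370521-172370640 on the minus strand for *Aurka*, chr7:80294381-80294500 on the plus strand for *Prc1* and chr15:99651607-99651726 on the minus strand for *Racgap1*.
Plk1: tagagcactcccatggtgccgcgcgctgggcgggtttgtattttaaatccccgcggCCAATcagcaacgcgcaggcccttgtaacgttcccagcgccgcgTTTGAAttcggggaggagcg
Aurka: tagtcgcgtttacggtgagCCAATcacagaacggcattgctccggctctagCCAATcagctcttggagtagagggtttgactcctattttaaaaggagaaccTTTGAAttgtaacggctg
Prc1: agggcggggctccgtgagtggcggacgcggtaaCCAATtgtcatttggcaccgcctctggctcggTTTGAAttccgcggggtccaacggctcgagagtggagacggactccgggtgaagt
Racgap1: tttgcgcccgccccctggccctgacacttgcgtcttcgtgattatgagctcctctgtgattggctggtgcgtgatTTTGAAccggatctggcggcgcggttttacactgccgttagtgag

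Over windows from 250 bases before to 50 after the start site and on both strands, TTTGAA stood in 17.9% of all 32851 RefSeq windows, in 11 of 16 windows of the mitosis list (68.8%) and in 11.8% of the 17 windows of the DNA replication list. CCAAT stood in 37.4% of all windows in 13 of the 16 mitosis windows (81.2%) and in 76.5% of those of the DNA replication list. Of the 5 mitosis genes called lower that had a window, 3 held TTTGAA. *Cep55*, which acts in the last step of cytokinesis, went the other way from these genes. It measured 5.04, 4.96 and 5.36 in the controls and 6.75, 6.52 and 7.08 in the irradiated mice, a change of 1.66 (SE 0.22, adjusted p = 0.00258), and was called whichever mouse was left out.

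Serpins and steroid dehydrogenases of the liver were among the largest decreases. Serpins are protease inhibitors, many of them secreted by hepatocytes, and the *Serpina* genes stand side by side on chromosome 12. Of 23 tested *Serpina* genes 3 were called lower, and the median change was −0.07. *Serpina9* measured 9.30, 10.02 and 9.07 in 0 Gy mice 1, 11 and 21 and 5.26, 5.56 and 6.24 in 2 Gy mice 3, 13 and 23, a change of −3.78 (SE 0.51, adjusted p = 0.00323), and its other probe changed by −3.55 (SE 0.44, adjusted p = 0.00152). *Serpina4-ps1*, a transcribed pseudogene of the cluster, went from 8.95, 9.90 and 8.50 to 4.87, 5.56 and 6.94, a change of −3.33 (SE 0.56, adjusted p = 0.0165). *Serpina5*, the protein C inhibitor, was measured in the controls at 5.52, 5.58 and 5.07, was not well above background at 2 Gy and was at least 2.62-fold lower (adjusted p = 0.0112). The 3 genes follow each other along the chromosome with only *Serpina12* between them among the tested genes, and it was not well above background on any of the 6 arrays. The genes of the alpha-1-antitrypsin group farther along had changes from −0.13 to 0.06 in *Serpina1a* to *Serpina1e*, and *Serpina1f* was not well above background on any of the 6 arrays. *Serpina11*, next to *Serpina9*, had a change of −0.35 (adjusted p = 0.271). On the other side, *Serpina3k* fell by 0.7 on the log2 scale (SE 0.13, adjusted p = 0.0314), and *Serpina3j* and *Serpina3h* had changes of −0.84 (adjusted p = 0.0949) and −0.57 (adjusted p = 0.318). *Serpina9* was called whichever mouse was left out, *Serpina5* was lost without 0 Gy mouse 11, and *Serpina4-ps1* without 0 Gy mouse 11 or 2 Gy mice 3 or 13.

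*Hsd3b5* belongs to the 3-beta-hydroxysteroid dehydrogenases, a family of steroid-converting enzymes, and is known as a male-biased liver gene under control of growth hormone. It measured 12.92, 12.63 and 12.39 in the controls and 9.18, 9.61 and 10.43 at 2 Gy, a change of −2.91 (SE 0.57, adjusted p = 0.0391). The irradiated mice differed among themselves by more than 1 log2 unit, all of them below the controls, and the call held only when 2 Gy mouse 23 was left out. *Hsd3b4* was at least 2.64-fold lower (adjusted p = 0.0477). All 6 tested *Hsd3b* genes of the cluster on chromosome 3 had a change below 0, with a median of −0.68, and these are closely related copies whose signals may overlap. *Slco1a1*, a bile acid and organic anion transporter that is likewise sex-biased, had a change of −1.72 (SE 0.38, adjusted p = 0.0672), with levels of 13.16, 12.81 and 12.90 against 10.97, 11.13 and 11.59. Of 12 tested genes of the growth hormone axis and sex-biased liver genes, *Hsd3b5* was the only member called, and the median was −0.08.

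Some genes linked to stress of the endoplasmic reticulum (ER) were lower. Of 18 tested genes of ER chaperones and the unfolded protein response 2 were called lower, and the median was −0.33. *Creld2*, an ER protein raised by misfolded proteins, went from 13.03, 13.08 and 12.82 to 11.72, 11.81 and 11.83, a change of −1.19 (SE 0.22, adjusted p = 0.0293). *Manf*, a secreted ER stress protein, measured 13.16, 13.19 and 12.86 at 0 Gy and 11.80, 11.71 and 12.13 at 2 Gy, a change of −1.19 (SE 0.23, adjusted p = 0.0363), though its brightest probe, at −0.99, did not pass (adjusted p = 0.0851). The levels did not overlap, but leaving out any mouse ended the call of *Creld2*, and leaving out any mouse other than 2 Gy mouse 23 that of *Manf*. The summed linear intensity of the list was 238848 to 256063 at 0 Gy and 180974 to 203473 at 2 Gy.

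Other liver genes moved singly. *Nqo1*, the quinone reductase of the NRF2 pathway, went from 9.32, 9.83 and 9.31 to 10.95, 10.51 and 10.23, a change of 1.08 (SE 0.21, adjusted p = 0.039), and was the only one of 10 NRF2 targets called, with a median of 0. *Id1*, an inhibitor of helix-loop-helix factors that BMP signals raise, measured 9.55, 9.77 and 10.26 at 0 Gy and 11.08, 11.62 and 11.55 at 2 Gy, a change of 1.56 (SE 0.27, adjusted p = 0.0208). *Vldlr*, the receptor for very low density lipoprotein, changed by 1.33 (SE 0.25, adjusted p = 0.0301). *Lifr*, the receptor for leukemia inhibitory factor, fell by 1.03 on the log2 scale (SE 0.19, adjusted p = 0.0318). *Zdhhc22*, a palmitoyltransferase, had levels of 8.52, 8.74 and 8.59 in the controls and 5.60, 5.52 and 6.18 in the irradiated mice, a change of −2.85 (SE 0.22, adjusted p = 3.6e-05), and *Prok1*, a secreted prokineticin, measured 8.57, 8.65 and 8.29 against 6.29, 6.35 and 6.76, a change of −2.04 (SE 0.24, adjusted p = 0.00121). *Zdhhc22* and *Prok1* were called whichever mouse was left out, while *Nqo1*, *Id1*, *Vldlr* and *Lifr* each lost the call in 4 or 5 of the 6 fits that left out a mouse.

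Lists of hepatocyte identity and metabolism held no called gene. Of the 11 hepatocyte markers none was called, with a median of 0, a largest change of −0.58 in the apolipoprotein gene *Apoa1* (adjusted p = 0.0672) and summed linear intensities of 3007835 to 3101345 at 0 Gy and 2960234 to 3059731 at 2 Gy. Quantile normalization favours near-equal sums of very bright probes. None was called among 19 genes of fatty acid synthesis (median −0.17), 21 of cholesterol synthesis (0.06), 29 of PPAR alpha and fasting (0.21), 25 cytochrome P450 genes (0.03), 23 of conjugation and transport (0.10), 18 of the circadian clock (0.20) and 11 responsive to glucocorticoids (0.10). Among the members with the largest changes in these lists were the sterol oxidase gene *Msmo1* at 0.32 (adjusted p = 0.81), the thioesterase gene *Acot3* at 1.30 (adjusted p = 0.308), the clock gene *Per2* at −0.47 (adjusted p = 0.301) and the glucose-6-phosphatase gene *G6pc* at −0.99 (adjusted p = 0.491). The sulfotransferase gene *Sult2a4* had a change of 2.35 (SE 0.90, adjusted p = 0.313), with controls that ranged from 5.95 to 9.36, so that this size was not detectable against their spread. *Cyp11b1*, a steroid hydroxylase gene near background at 2 Gy, did not pass (adjusted p = 0.133). *Acaca*, which encodes acetyl-CoA carboxylase, and the transporter gene *Abca8a* had changes of −0.12 (adjusted p = 0.851) and −0.35 (adjusted p = 0.511).

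Other inflammatory lists held no called gene. None of 21 interferon response genes, 13 chemokines and 14 immediate early and Gadd45 genes passed, with medians of −0.03, 0.08 and −0.04. The largest changes were those of the chemokines *Cxcl10* at −0.74 (adjusted p = 0.632) and *Cxcl1* at 0.83 (adjusted p = 0.57) and of the stress gene *Gadd45g* at 1.39 (adjusted p = 0.429). Markers of sinusoidal endothelium, stellate cells and bile duct were not called either, with medians of −0.12, −0.02 and −0.06, nor were those of pancreas acinar cells (0.16) and adipocytes (0.20), the neighbouring tissues that a dissection could include. Changes there reached −0.53 in *Oit3*, −0.60 in *Acta2*, 0.32 in *Sox9* and 0.55 in *Cfd*, with adjusted p of 0.183 and above. Of 9 tested long non-coding RNAs with a gene symbol none was called, the largest change being 0.82 in the snoRNA host gene *Snhg1* (adjusted p = 0.0818). *Trp53cor1* and *Malat1* had no tested probe under their symbols. Probes named only by a chromosomal region were outside this list, and some of them were called higher.

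For the other doses the means of the 94 probes are given without a test, since all doses share the controls. The probes were also chosen by their gap between 0 and 2 Gy, which favours means of other doses inside it. The counts below only describe these probes, and the shares over all tested probes were not computed. The 1 Gy mean lay between the 0 and 2 Gy means for 91 of them, and the 12 Gy mean lay farther from 0 Gy than the 2 Gy mean for 63, 16 of the 31 higher and 47 of the 63 lower. *Cdkn1a* had mean levels of 9.05, 10.67, 11.62 and 12.79 at 1, 4, 8 and 12 Gy, and *Phlda3* of 8.53, 9.86, 10.54 and 11.31, so that both kept climbing beyond 2 Gy. *Ccng1* and *Ddias* did so too, reaching 12.22 and 8.01 at 12 Gy, as did the unnamed transcripts *Gm45941*, with 5.83, 5.83 and 6.09 at 0 Gy against 7.18, 8.37 and 7.43 at 2 Gy and 10.14 at 12 Gy, and BB189136, which was at least 2.81-fold higher at 2 Gy and reached 8.03. In contrast *Saa1* had means of 16.14, 17.79, 17.87 and 17.79 at 1, 4, 8 and 12 Gy, none above its 2 Gy level.

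Some genes, picked out after their means were seen, were already near their 2 Gy level at 1 Gy. *Tbata*, a gene known from thymus and testis, measured 7.43, 7.62 and 7.23 at 0 Gy and 8.85, 9.12 and 9.46 at 2 Gy, a change of 1.72 (SE 0.21, adjusted p = 0.00136), and its means at 1, 4, 8 and 12 Gy were 8.81, 8.93, 9.20 and 9.05. Another probe of the gene, near background, did not pass (adjusted p = 0.951). *Cdhr2*, a protocadherin of brush borders, went from 8.75, 8.73 and 8.42 to 9.74, 10.15 and 10.32, a change of 1.43 (SE 0.18, adjusted p = 0.00143), with means of 9.71 to 10.12 at the other doses. *Nr5a1*, the steroidogenic factor SF-1, and *Gucy2c*, the guanylin receptor, changed by 1.30 (SE 0.19, adjusted p = 0.00521) and 1.21 (SE 0.19, adjusted p = 0.0114), with 1 Gy means of 12.78 and 8.03 near their 2 Gy means of 12.99 and 8.23. The probe of the clone AK079279 was called higher but was not well above background in either group, so no fold is given.

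**Figure D4:**
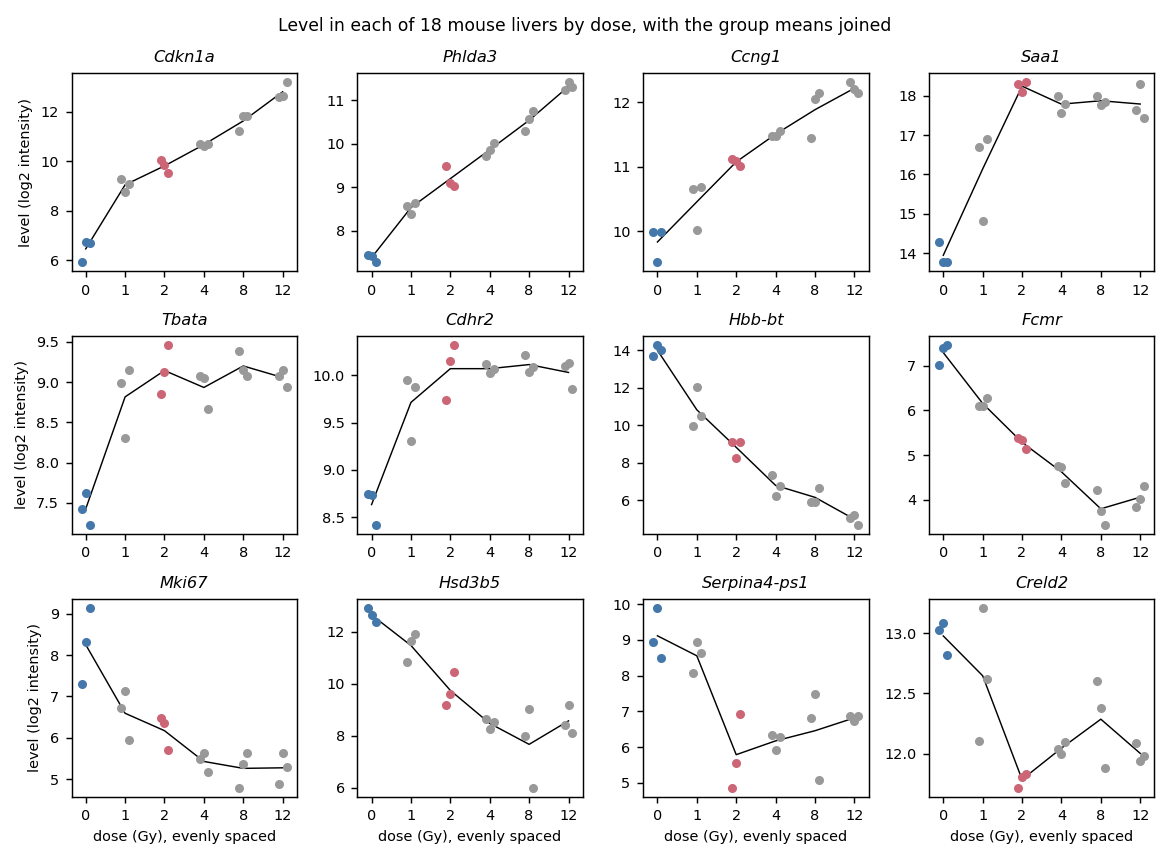
Normalized log2 intensity (vertical axis) of 12 genes in each of 18 livers by dose in Gy (horizontal axis, doses evenly spaced), with a point per mouse and a line through the means of 3 mice a dose. *Cdkn1a*, *Phlda3* and *Ccng1* climb to 12 Gy and *Hbb-bt* falls throughout, whereas *Tbata* and *Cdhr2* are near their 2 Gy level at 1 Gy and *Saa1* stays level from 2 Gy on.

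No probe was called between 2 Gy and its neighbouring doses. All 1 Gy arrays lay on the slide of 2 Gy mice 3 and 13, and all 4 Gy arrays on that of 2 Gy mouse 23. For 4 against 2 Gy, dose and slide can therefore hardly be told apart. With the slide in the model, 4 against 2 Gy in effect rests on 2 Gy mouse 23 alone, and 2 against 1 Gy on 2 Gy mice 3 and 13. Comparisons that use no 0 Gy array gave 0 calls (0%) for 2 against 1 Gy, 0 (0%) for 4 against 2 Gy and 0 (0%) for 2 Gy against the mean of 1 and 4 Gy, with 3994, 4130 and 3261 probes at an unadjusted p below 0.05 in limma. Nearest to the threshold for 2 against 1 Gy were *Cep55*, at 1.56 (SE 0.22, adjusted p = 0.0714), *Plet1*, a surface protein of epithelial progenitors, at −0.91 (SE 0.12, adjusted p = 0.0714) and the tubulin gene *Tuba1c* at −1.21 (SE 0.18, adjusted p = 0.0959). *Cep55* had a 1 Gy mean of 5.22, close to its 0 Gy mean of 5.12 and below the 6.78 of 2 Gy. Calls appeared in these comparisons when single mice were left out, 26 at most for 2 against 1 Gy, without 2 Gy mouse 3, and 62 at most for 4 against 2 Gy, without 2 Gy mouse 23. Adding the slide to the model gave 13, 69 and 36 calls in the same order.

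The change at 2 Gy was also set against that in lung, where the 0 Gy and 2 Gy arrays lay on different slides, so that dose and slide cannot be told apart there. Of 47376 probes tested for a difference between the tissues' changes, 26 were called (0.0549%), 16 with the higher value in liver and 10 in lung. Of these, 9 were also called in liver and not in lung, and 14 were called in lung but not called, or not tested, in liver. The liver change is from the liver fit, while the lung change and the difference are from a joint fit of both tissues normalized together. The difference therefore need not equal one change minus the other. *Serpina9* changed by −3.78 in liver and 0.64 in lung, with a difference of −4.32 (SE 0.68, adjusted p = 0.0066). *Alas2* had the larger fall in lung, with −0.95 in liver, −4.88 in lung and a difference of 4.05 (SE 0.50, adjusted p = 0.000298). Only 5 of the 26 calls were left with the slide as a random block and 5 with the sample number as a block, where the adjusted p was 0.0385 and 0.0376 for this probe of *Serpina9* and 0.004 and 0.0057 for *Alas2*. *Napsa*, an aspartic protease of lung and kidney, was at least 2.77-fold lower in liver and had a lung change of 0.01, but its call was lost with either block (adjusted p = 0.0525 and 0.0661). The probes of *Prok1* and *Serpina5* were not well above background on any lung array of either dose, so no change in lung can be set beside their falls in liver. For several genes with the largest changes the tissues were not shown to differ. *Hbb-bt* changed by −5.18 in liver and −4.41 in lung (adjusted p of the difference 0.995), *Saa1* by 4.29 and 3.06 (0.966) and *Cdkn1a* by 3.34 and 2.08 (0.448). The B cell gene *Cd79b*, measured in both tissues, changed by −1.51 in liver and −2 in lung. *Cd22*, another member of the B cell list, differed between the tissues. It had −0.08 in liver (adjusted p = 0.901) and −1.4 in lung, with a called difference of 1.31 (adjusted p = 0.046). That call was lost with the slide as a random block (adjusted p = 0.234).

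**Figure D5:**
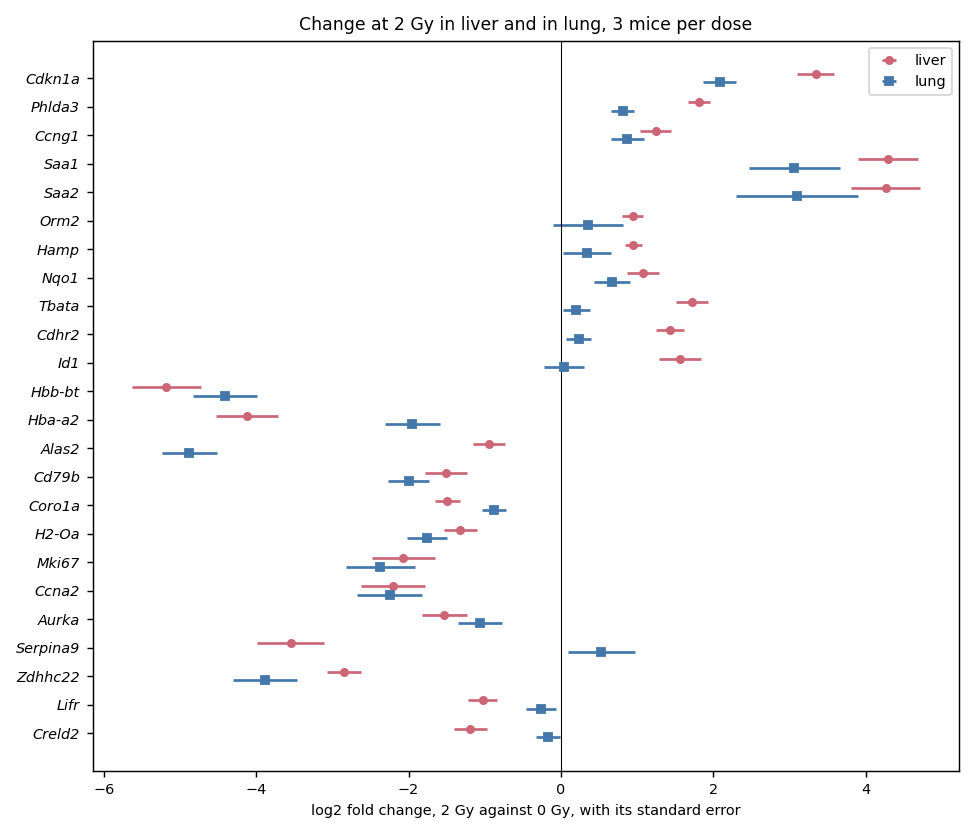
Change at 2 Gy against 0 Gy (horizontal axis, log2 fold change) in liver and in lung for 24 genes (vertical axis), with points at the fitted change and bars of 1 SE, 3 mice a group in each tissue. Liver changes are from the liver fit and lung changes from the joint fit of both tissues. Genes with a group wholly near background are not drawn, *Serpina9* lies well below 0 in liver and above 0 in lung, and the globin genes lie below 0 in both tissues.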

How the data were processed

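RNA was measured on 1-colour Agilent arrays. The authors deposited, per array, median pixel intensity values of each spot and its local background, as Agilent Feature Extraction wrote them, without normalization, and also the software's processed intensity and a table of series values whose procedure is not given in the sources used here. No genome build is given for the array files.

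Median intensities were corrected with normexp (offset 0) in limma 3.58.1 under R 4.3.3, outlier spots were set to missing, the 18 liver arrays were quantile-normalized, and log2 values were averaged over a probe's spots. Probes well above background on at least 1 liver array entered a limma fit with a mean for each of 6 doses and moderated variances (eBayes), with p values adjusted by the Benjamini-Hochberg method over all probes. Calls needed a log2 change beyond 1 in either direction together with an adjusted p below 0.05. A probe dim on all arrays of a single group has only a lower limit on its fold, from the brighter group's mean over the dim group's, a dim array counting with its lowest well-measured level or the probe's own value, whichever was higher. Where the probe's own values were the higher ones, this limit equals the fitted fold and is not a strict bound. Tissues were compared over 36 arrays normalized together, in 12 groups.

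The members and lists were chosen with earlier results of these data known. Named were the 12 genes with the largest called increase and decrease without overlap, each list's called members or else its most changed member, genes the study singles out, and the leading genes of the other comparisons. Other named genes were picked after their values were seen. A gene is given by its brightest probe, or by its called probe with the largest change. Certain genes of the lists are not reported here. Promoter windows are from RefSeq. Alternatives covered background correction, scaling, filters, probe averaging, slide, sample number as a block and each mouse left out. Figures were drawn with Python 3.11.15 and matplotlib 3.10.9.

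Animals are separate samples by the labels. Same-numbered liver and lung samples did not deviate together: 18 correlations of their deviations from the group means ran from −0.05 to 0.048.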

Additional observations from a re-analysis of the deposited data

Results flagged for a closer look

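The 26 probes whose change at 2 Gy differed between liver and lung were picked out because the difference itself passed the test in a joint fit of both tissues. The lung arrays of 0 and 2 Gy lay on different slides, so for each of these values dose and slide cannot be told apart in lung. Only 5 of the 26 were called with the slide as a random block. *Alas2*, the erythroid enzyme of heme synthesis, had a difference (liver minus lung) of 4.05, with both tissues below 0. The 2 probes of *Serpina9*, measured in both tissues, had −4.02 and −4.32. *Tbata* had 1.35, *Gm35472* 1.04 and the transcript ENSMUST00000108229.1 1.44, increases called in liver and not in lung, each lost with the slide as a random block (adjusted p = 0.235, 0.256 and 0.216). *Matk* had 1.69 and was well above background on all arrays of both doses in both tissues. It stayed called with the slide or the sample number as a block (adjusted p = 0.00391 and 0.0376). Not all of the 26 probes are named here. For the probes named next a group lay near background, so their fitted differences are no exact sizes. *Prok1*, fitted at −2.17, and *Serpina5*, at −2.73, were not well above background in lung at either dose. *Napsa*, at −1.83, and the calcium channel gene *Cacna1i*, at 1.85, were not well above background in liver at 2 Gy. *Hapln2*, a matrix link protein, had −2.46 and was well above background on 1 of the 6 liver arrays. AK079279 had a fitted 3.44 while near background in liver at both doses, and its fitted liver change went from 3.35 to 0.25 with an offset of 50, so no size is given for it.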

How the results depend on the processing

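For 2 against 0 Gy in liver the 94 calls became 30 when only the 6 arrays were normalized and fitted (4 higher, 26 lower) and 24 within the shared slide (9 and 15), both with fewer arrays, and 50 to 117 when a mouse was left out. Without 0 Gy mouse 11 the calls were 25 higher and 25 lower, without 0 Gy mouse 1 they were 25 and 92, without 2 Gy mouse 3 they were 66 and 41 and without 2 Gy mouse 23 they were 60 and 55. The split also moved to 53 higher and 43 lower with the slide as a term, 49 and 54 with the processed signal, 35 and 47 with normexp values scaled to the 75th percentile and 43 and 58 with the series values. The other settings gave 69 to 124 calls. For 2 against 1 Gy there were 8 calls with an offset of 50, 5 with the stricter filter, 13 with the slide as a term and 0 to 26 without a mouse. For 4 against 2 Gy there were 3 with the processed signal, 3 with the series values, 1 with probes of an accession averaged, 69 with the slide as a term and 0 to 62 without a mouse. For 2 Gy against the mean of its neighbours there were 1, 1, 36 and 0 to 30 with the processed signal, the series values, the slide as a term and without a mouse. The 26 calls between tissues became 47 with an offset of 50, 73 with the processed signal, 67 with the series values, 10 without a filter, 5 with the slide as a random block and 6 to 89 without a mouse, 6 of them without 2 Gy mouse 13 in liver or 2 Gy mouse 23 in lung and 89 without 2 Gy mouse 23 in liver. The split between tissues moved from 16 with the higher value in liver and 10 in lung to 59 and 14 with the processed signal, where the median of all probes shifted by 0.126, and to 51 and 16 with the series values, where it shifted by 0.104. The cause of these moves was not tested. With the sample number as a replicate block there were 5 calls between tissues. No paired analysis was possible within liver because each mouse holds a single dose. The slide as a term was not run for the tissues. For 2 against 0 Gy in liver this term rests on 2 Gy mouse 23, so it is no separate check from leaving out that mouse. Of the values of 70 named probes under the alternatives, 898 kept direction and side of the threshold, 203 lost the call, 5 gained it and 2 reversed, *Ltf* to 0.02 with the series values and *Acaca* to 0.02 without 2 Gy mouse 13 (−0.32 to 0.02 over the mice left out), neither of them called. Probes near background carry only a limit on their fold, so the size of their falls is less certain than their direction.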
